A study of Mus musculus with 19 samples.

Results

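The 7 genes described here encode growth factors of the neurotrophin and insulin-like growth factor families, their receptor tyrosine kinases and a secreted protein that neurotrophins induce. They were chosen by name: Bdnf, Ntf3 and Igf1 for the ligands, Ntrk2, Ntrk3 and Igf1r for the receptors, and Vgf. All 7 were found among the 24130 Ensembl genes that any library of primary somatosensory cortex (S1) listed, and 6 of them were listed in every library. Ntf3 had no entry in library F.

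The study dissected the S1 of male C57BL/6 mice (C57BL/6J in the study's methods) at postnatal day 56 into 6 laminar segments and sequenced polyadenylated RNA. From the surface inward, segment A held mostly layers 1 to 3 and B mostly layer 4. Layer 5 was divided into an upper segment, C, and a lower segment, D, and E and F were taken for layers 6 and 6b. The segments do not match the layers exactly. Libraries A, C, D, E and F were each made from tissue pooled over the same 8 mice, while segment B gave a pair of libraries, B1 and B2, with the RNA of 4 of these mice, 1 litter, in each. The libraries thus share animals, and the tests described here treat them as independent. Another 12 samples, of dorsal and lateral cortex, were not analysed here.

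The protein encoded by Bdnf binds the receptor TrkB, the product of Ntrk2, and neurotrophin-3, the product of Ntf3, binds TrkC, the product of Ntrk3. Both receptor genes give a full-length protein with an intracellular tyrosine kinase and truncated proteins that share the extracellular and transmembrane parts but lack the kinase. Truncated TrkB is known as the prevailing form in astrocytes, while neurons make both forms. IGF-1 signals through the receptor kinase encoded by Igf1r, and Vgf encodes a precursor of secreted neuropeptides whose transcription responds to neurotrophins and to activity.

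The full-length and truncated forms part within the coding sequence, and the bases around that point are printed because the isoform results turn on them. Lower case gives the last 21 coding bases that both forms of a gene share, and capitals give coding bases of 1 form only, spliced and 5′ to 3′ on the coding strand. The sequences are those of the GENCODE M21 transcripts with the same identifiers, and the positions of the capitals are on GRCm38. For Ntrk2, on the plus strand, the capitals lie at chr13:58985802-58985861 for the full-length form, of which 60 bases are shown, and at chr13:58932023-58932057 for the truncated form, whose own part is shown whole.
Ntrk2 full-length, ENSMUST00000079828: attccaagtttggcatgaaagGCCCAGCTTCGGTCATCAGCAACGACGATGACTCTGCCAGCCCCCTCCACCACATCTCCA
Ntrk2 truncated, ENSMUST00000109838: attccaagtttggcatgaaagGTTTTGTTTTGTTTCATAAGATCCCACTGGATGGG
For Ntrk3, on the minus strand, the capitals lie at chr7:78260355-78260414 for the full-length form and, for the first 150 bases of the truncated form, within chr7:78302733-78304426, which holds an intron.
Ntrk3 full-length, ENSMUST00000039431: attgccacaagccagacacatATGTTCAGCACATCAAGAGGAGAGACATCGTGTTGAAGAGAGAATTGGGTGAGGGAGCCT
Ntrk3 truncated, ENSMUST00000039438: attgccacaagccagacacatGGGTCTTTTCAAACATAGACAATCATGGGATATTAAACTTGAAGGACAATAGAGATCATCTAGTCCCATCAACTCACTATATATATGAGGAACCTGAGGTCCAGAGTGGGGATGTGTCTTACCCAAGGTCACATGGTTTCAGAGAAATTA

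In that annotation the full-length TrkB has 821 residues and the truncated one 476, of which they share 464 whole codons, so that 35 coding bases belong to the truncated form alone. Full-length TrkC has 825 residues and the truncated one 612, they share 528 codons, and 251 coding bases belong to the truncated form alone. Each truncated form also ends at a 3′ end of its own, inside the gene, which the deposited models could tell apart.

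Expression is given in FPKM, fragments per kilobase of model scaled to the mapped fragments of the library, with the 95% interval that Cufflinks gave for each estimate. The depth of a library, estimated from the deposited coverage and FPKM, was 31.6 to 75.7 M fragments. These intervals hold counting and assignment error within a library, and only B1 and B2 show any spread between litters (n = 2). B1 and B2 also differed as libraries, with a mean insert of 239 and 193 nt, 7.76% and 18.2% mitochondrial FPKM and 49.4 and 75.7 M fragments. Litter and library preparation therefore cannot be told apart, and a difference between the litters below is one between these 2 libraries. Library A stood apart from the others, with 21.8% of all FPKM on the mitochondrial genome, against 5.03% to 18.2%. It also had the lowest estimated depth, 31.6 M fragments, and the shortest mean insert, 164 nt against 172 to 239 nt. The median-of-ratios factor, which divides the values of a library on another scale used below, was 0.789 in A and 0.926 to 1.15 elsewhere. That scale therefore raises A against every other library. Of the 17844 genes that averaged 0.1 FPKM or more, 42.5% were lowest in A, 24.4% were highest in A and 28.3% were highest in F. Markers of the labelled layers were partly set apart by the segments: summed FPKM of Cux2 and Rorb was 43.8 to 61.3 in A, B1 and B2 and 4.67 to 7.58 in D, E and F, and that of the layer 6b markers Ctgf, Cplx3 and Nxph4 was 373 in F and 68.0 in E but at most 10.9 elsewhere. Those of layer 5, Fezf2 and Bcl11b, summed to 39.0 and 37.0 in C and D but also to 31.0 in E and 33.3 in F, and those of layer 6, Tbr1 and Foxp2, to 86.7 in E and 80.5 in F but also to 42.1 in B1. In such bulk segments fewer cells of a type and less RNA per cell cannot be told apart.

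**Figure D1:**
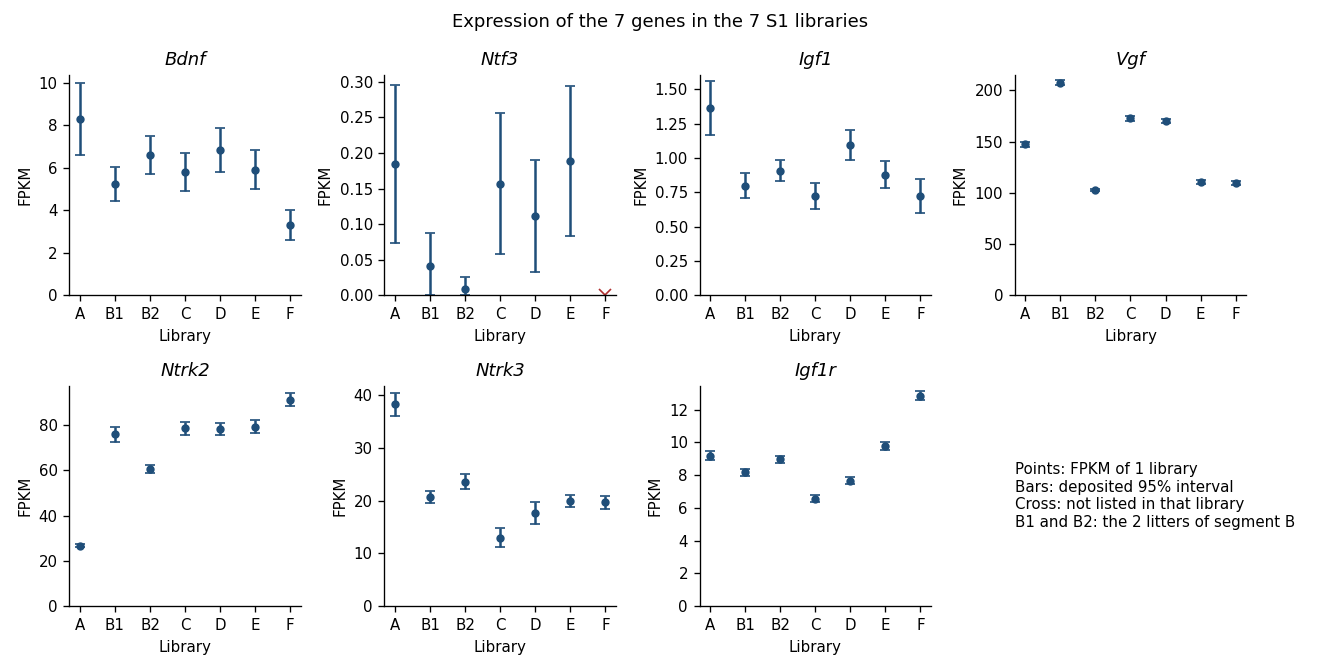
FPKM (y axis, linear) of the 7 genes in the 7 libraries (x axis), with bars for the deposited 95% interval and a cross where a gene was not listed. Ntrk2 is lowest in A and highest in F, Ntrk3 and Igf1 are highest in A, Igf1r is highest in F, and for Vgf the highest and lowest values are the 2 litters of segment B.

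Bdnf (ENSMUSG00000048482, chr2:109514857-109567163 on mm9) was found in every segment at a few FPKM. It had 8.31 FPKM in A, 5.24 and 6.62 in B1 and B2, 5.82 and 6.84 in C and D, 5.91 in E and 3.30 in F. F was the lowest library, with an interval of 2.60 to 4.00 that overlapped none of the others, while the interval of A, 6.60 to 10.01, overlapped those of B2, C, D and E. The mean of segment B was 5.93 ± 0.971 FPKM (SD, n = 2), and A was 2.52 times as high as F. A trend over the 6 segments was tested with limma, as a linear and a quadratic term of segment position in log2(FPKM + 0.1) over all 7 libraries, with Benjamini-Hochberg adjustment over all 17844 genes. The linear slope of Bdnf was -0.16 ± 0.07 (SE) per segment step, and the trend did not pass the threshold of 0.05 (limma adjusted p = 0.152). Here and below, an adjusted p printed with a slope is that of the joint test, not of the slope alone. A call with a positive or negative slope is likewise a joint call sorted by the sign of its slope.

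Bdnf has several start sites, each with its own first exon, spliced to 1 exon that holds nearly all of the coding sequence. Of its 6 listed transcripts, ENSMUST00000111050 and ENSMUST00000111045 were in most libraries the most abundant. ENSMUST00000111050 had 1.81 FPKM in A, 1.37 and 2.47 in B1 and B2, 2.24 and 2.40 in C and D, 2.31 in E and 0.839 in F. It took 37.3% of the Bdnf FPKM in B2 but 26.2% in B1, which are replicates, so that its share of 25.4% in F and 21.8% in A lay near the lower of the replicates. ENSMUST00000111045 had 1.93 FPKM in A, 2.24 and 1.999 in B1 and B2, 1.38 and 1.98 in C and D, 1.62 in E and 1.07 in F. Both were thus lowest in F, along with ENSMUST00000053317, which had 1.26 FPKM in A and 0.443 in F with intervals that did not overlap.

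As the deposited values divide the fragments among transcripts, the high value of Bdnf in A rested on 1 transcript. ENSMUST00000111046, which starts at another first exon, had 2.13 FPKM in A, with an interval of 1.02 to 3.23, 0.304 in D and 0.179 in F, and was not listed in the other 4 libraries. The other 5 transcripts summed to 6.18 FPKM in A, 5.24 and 6.62 in B1 and B2, 5.82 and 6.53 in C and D, 5.91 in E and 3.12 in F. Without ENSMUST00000111046, library A therefore lay between B1 and B2 as deposited, and F alone was outside the range from B1 to B2. This order depends on the scale. With the median-of-ratios factors, 0.789 in A, 0.926 in B1 and 0.943 in B2, A lay above both litters for these 5 transcripts too. On that scale C, E and F lay below both litters. That the high value in A rested on 1 transcript thus holds only as deposited. The 6 listed transcripts end at the same base, and how fragments of shared exons were divided among them was not tested.

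**Figure D2:**
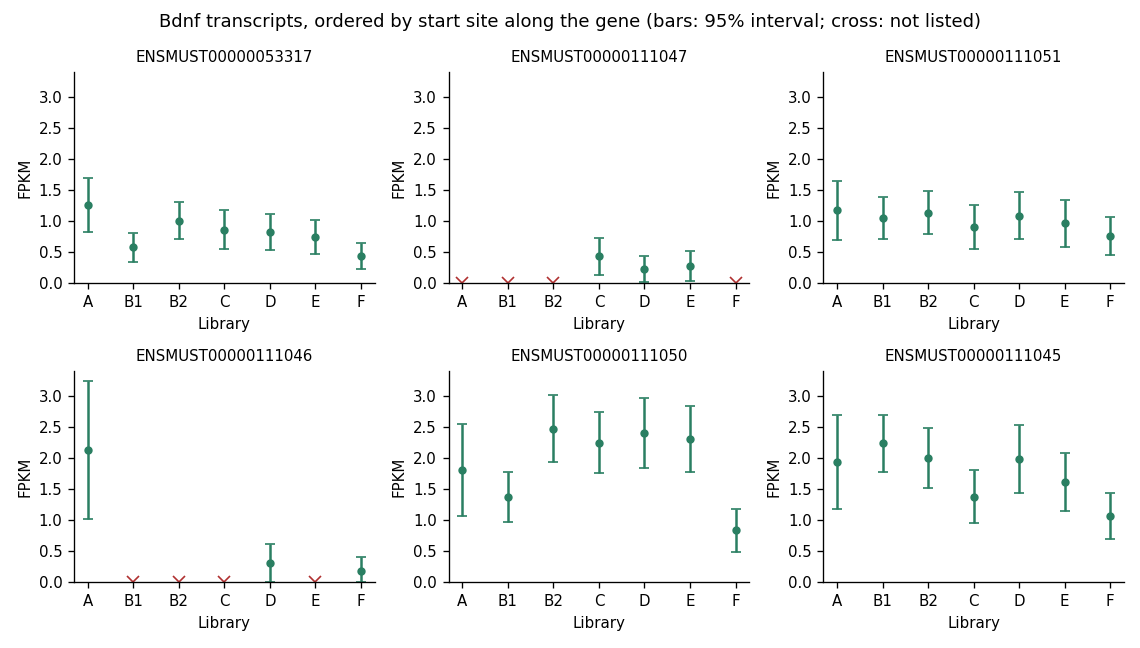
FPKM (y axis, linear) of the 6 listed Bdnf transcripts in the 7 libraries (x axis), with bars for the 95% interval and crosses where a transcript was not listed, ordered by start site along the gene. ENSMUST00000111046 reaches 2.13 FPKM in A and at most 0.304 elsewhere, and ENSMUST00000111050 is lowest in F.

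The 250 bases before the start of ENSMUST00000111050 are printed as the best-known activity-dependent promoter of the gene, with the letters TGACG, the core of the cyclic AMP response element, in capitals where they occur on either strand. The sequence is RefSeq's on GRCm38.p6, chr2:109692186-109692435, plus strand, and starts of 3 of the 6 transcripts matched a RefSeq start.
Before ENSMUST00000111050: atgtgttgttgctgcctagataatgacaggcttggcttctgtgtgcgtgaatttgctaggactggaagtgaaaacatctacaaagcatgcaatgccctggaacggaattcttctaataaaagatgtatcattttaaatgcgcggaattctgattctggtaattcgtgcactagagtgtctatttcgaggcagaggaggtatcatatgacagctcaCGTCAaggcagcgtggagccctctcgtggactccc
The core occurred once, on the minus strand, from 35 bases before the start, and it did not occur before ENSMUST00000053317 or ENSMUST00000111046. It occurs in 17.8% of all 32851 promoter windows of that length, and the full palindrome TGACGTCA, which holds the core on both strands, in 1.55% of them and in none of the 3. A match of letters is a description of the window.

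Ntf3 (ENSMUSG00000049107, chr6:126051433-126114978 on mm9), the ligand of TrkC, was close to the limit of detection. It had 0.184 FPKM in A, 0.0410 and 0.00868 in B1 and B2, 0.157 and 0.112 in C and D and 0.189 in E. These values stand for an estimated 7.79 fragments in A, 2.71 and 0.88 in B1 and B2, 8.86 and 6.94 in C and D and 11.2 in E. The intervals of A, C, D and E overlapped each other, and both litters of segment B lay below all of them, although the interval of B1 reached into those of the others and that of B2 overlapped only B1. Its mean of 0.0987 FPKM was under the filter of 0.1, so it was not part of the trend test. With no filter its slope was -0.06 ± 0.14 (SE) per segment step (limma adjusted p = 0.834 over 24130 genes), which did not pass.

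Igf1 (ENSMUSG00000020053, chr10:87321813-87399787 on mm9) was low throughout, near 1 FPKM. It had 1.36 FPKM in A, 0.797 and 0.908 in B1 and B2, 0.722 and 1.10 in C and D, 0.878 in E and 0.725 in F. A and D were the highest libraries, with intervals that overlapped each other and none of the other 5. Among those 5, B2 and C were the only pair whose intervals did not overlap. The mean of segment B was 0.853 ± 0.0787 FPKM (SD, n = 2). The slope was -0.08 ± 0.07 (SE) per segment step and the trend did not pass (limma adjusted p = 0.533).

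The longer of the 2 listed Igf1 transcripts, ENSMUST00000095360, was found in every library. It had 1.10 FPKM in both A and D, 0.797 and 0.908 in B1 and B2, 0.722 in C, 0.878 in E and 0.624 in F. For this transcript A and D were thus level as deposited, while the median-of-ratios factors of 0.789 in A and 1.07 in D would set A above D. As deposited, the higher gene value of A came from ENSMUST00000062862, listed at 0.266 FPKM in A, 0.101 in F and in no other library. How fragments were divided between the 2 transcripts was not tested. Markers of the leptomeninges, which cover layer 1, were mostly highest in A. Their 7 genes summed to 26.2 FPKM there and to 2.21 to 3.78 in the other libraries, where Col3a1 was at 0 in C. Lum was the exception, at 0.164 FPKM in A and 0.155 to 0.285 in the other libraries. The 4 endothelial markers summed to 64.3 FPKM in A and 28.4 to 43.2 elsewhere, with 51.0 in A from Cldn5 alone, while Pecam1 and Tek were lowest in A and Flt1 was highest in B2. The part of these cells in the values of Igf1 and Bdnf in A was not tested.

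Vgf (ENSMUSG00000037428, chr5:137506165-137509221 on mm9) was by level the highest of the 7 genes, with 1 listed transcript. It had 147 FPKM in A, 207 and 103 in B1 and B2, 173 and 170.0 in C and D, 111 in E and 109.7 in F. The highest and the lowest of these values were the 2 litters of the same segment, which differed 2.02-fold, so that every other segment lay between the litters of segment B, 155 ± 73.9 FPKM (SD, n = 2). The slope was -0.09 ± 0.07 (SE) per segment step, with a limma adjusted p of 0.408. Vgf is rich in GC, at 64.1% of its transcript, and B1 exceeded B2 by 1.01 on the log2 scale for Vgf and by a median of 0.57 over the 835 tested genes in the same class of GC content, 59.9% to 82.9%. The difference of Vgf was larger than that of 87.9% of these genes.

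Of the 6 genes that entered the trend test, the 3 receptors passed, against 36.5% of all genes tested. All 3 calls were near the threshold and each was lost when A, B2, C or E was left out. Among all genes, 28.3% were called with a slope toward the deep segments and 8.20% with a slope toward the superficial ones, so that 77.5% of the calls were deep. That split moved with the scaling: after scaling by the median of ratios it was 49.7%, after scaling without mitochondrial genes 67.1% and after a correction for GC content 52.2%, while the median slope of all genes went from 0.08 to -0.01, 0.03 and -0.0006 per segment step. The median of ratios and the GC correction centre the values of all genes, which brings the split near even by construction. The receptors are therefore described with their slopes on these scales.

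**Figure D3:**
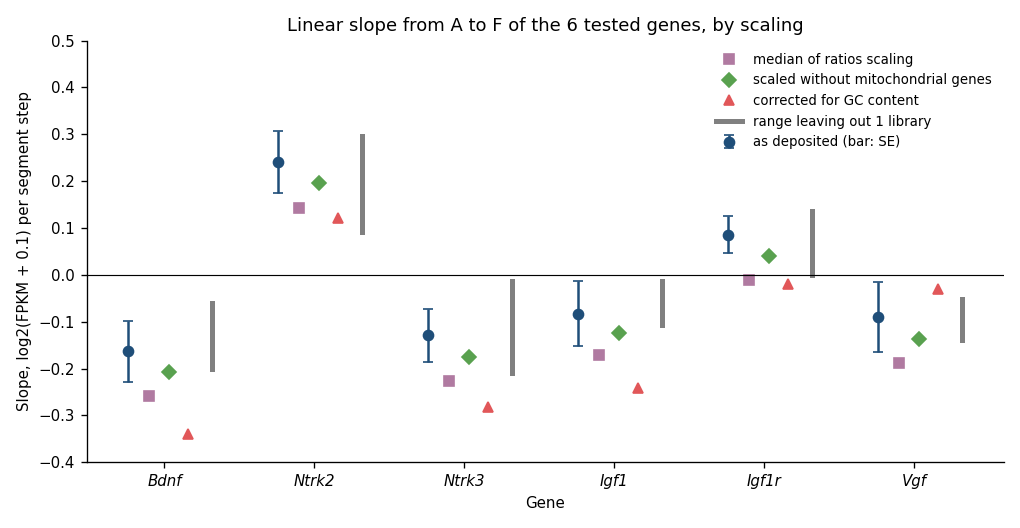
Linear slope in log2(FPKM + 0.1) per segment step (y axis) of the 6 tested genes (x axis), as deposited with its SE, after 2 other scalings, after a GC correction, and as the range over the fits that leave out 1 library. Ntrk2 stays above 0 and Bdnf, Ntrk3, Igf1 and Vgf stay below it in all of these, while Igf1r crosses 0 under the median of ratios, the GC correction and without F.

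Ntrk2 (ENSMUSG00000055254, chr13:58909261-59235331 on mm9), the receptor of Bdnf, was the highest of the receptors, and was lowest in A and highest in F. It had 26.8 FPKM in A, 75.9 and 60.6 in B1 and B2, 78.6 and 78.3 in C and D, 79.3 in E and 91.2 in F. As deposited, A was far below the rest and F above them, while B1, C, D and E overlapped in their intervals. Under the median of ratios, with factors of 0.926 in B1 and 1.15 in F, F lay below B1 but still above B2, C, D and E. F was 3.41 times as high as A, and segment B had 68.2 ± 10.8 FPKM (SD, n = 2). The slope was 0.24 ± 0.07 (SE) per segment step (limma adjusted p = 0.0301). Without A it was 0.09 (adjusted p = 0.322), under the median of ratios 0.14 (adjusted p = 0.109) and with the GC correction 0.12 (adjusted p = 0.158), so that direction was kept and the call was not.

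Ntrk3 (ENSMUSG00000059146, chr7:85337248-85723294 on mm9), the receptor of neurotrophin-3, had a slope of the opposite sign. It had 38.2 FPKM in A, 20.6 and 23.5 in B1 and B2, 12.97 and 17.7 in C and D, 19.9 in E and 19.7 in F. A was the highest library, C the lowest, and neither interval overlapped another, while E, F, B1 and D followed each other with overlaps. The slope was -0.13 ± 0.06 (SE) per segment step with a quadratic term of 0.14, that is, a minimum within the series. The joint test of both terms gave a limma adjusted p of 0.0400. With the median of ratios the slope was -0.23 (adjusted p = 0.0220) and with the GC correction -0.28 (adjusted p = 0.0132), and without A it was -0.01 (adjusted p = 0.475). Without both A and B2, the libraries with the most mitochondrial FPKM, a choice made after seeing the data, the slope was 0.05 (adjusted p = 0.570), so the fall rested on library A.

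Igf1r (ENSMUSG00000005533, chr7:75097143-75378553 on mm9), the receptor of IGF-1, was as deposited lowest in segment C and highest in segment F. It had 9.18 FPKM in A, 8.17 and 8.95 in B1 and B2, 6.57 and 7.65 in C and D, 9.80 in E and 12.8 in F. From C the value climbed at each step to F, with intervals that did not overlap, and A overlapped only B2. F was 1.96 times as high as C and 1.40 times as high as A, and segment B had 8.56 ± 0.552 FPKM (SD, n = 2). The median-of-ratios factors were 0.789 in A and 1.15 in F, and on that scale A lay above F. The slope was 0.09 ± 0.04 (SE) per segment step and the quadratic term 0.09 (limma adjusted p = 0.0462), and the slope turned to -0.01 under the median of ratios (adjusted p = 0.0412) and to -0.02 with the GC correction (adjusted p = 0.0397), where the joint test still passed. Without F the slope was -0.0013 (adjusted p = 0.309).

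Oligodendrocyte markers moved strongly along the same axis. Their 8 genes summed to 326 FPKM in A, 841 and 850 in B1 and B2, 1643 and 2202 in C and D, 4090 in E and 12506 in F, and all 8 passed the trend test with higher values in deep segments. The 8 astrocyte markers summed to 721 FPKM in A, 715 in E, 937 in F and 787 to 862 in the other libraries. Of these, Gfap, Aqp4 and Gja1 passed with higher values in deep segments, Gjb6 passed with a slope of -0.06, and the other 4 did not pass. The 6 microglial markers summed to 102 FPKM in A, 106 in F and 59.4 to 81.0 in the other libraries, but they did not move together. Csf1r, Cx3cr1 and P2ry12 passed with higher values in deep segments. C1qa and C1qb passed with slopes of -0.03 and were highest in A, as was Aif1, which did not pass. The 4 striatal markers summed to 31.5 FPKM in F and 7.16 to 26.4 elsewhere, and of these Adora2a, Drd1a and Drd2 were highest in F, at 5.43, 11.8 and 3.64 FPKM. The 4 neuronal markers Snap25, Syt1, Rbfox3 and Tubb3 summed to 1054 FPKM in A and 1762 to 2413 elsewhere. Rbfox3 went the other way, with 337 FPKM in A and 107 to 263 elsewhere. The 6 markers of GABA interneurons summed to 297 FPKM in A and 327 to 564 elsewhere, although Pvalb and Vip were lowest in F and Sst in B2. The part of any of these cells, glial or neuronal, in the values of Ntrk2 and Igf1r was not tested.

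The full-length and truncated forms of the receptors were compared within each library. Among the Ensembl models, the full-length end of Ntrk2 had 26.8 FPKM in A, 48.9 and 47.0 in B1 and B2, 55.6 and 54.2 in C and D, 55.1 in E and 47.6 in F. The truncated transcript ENSMUST00000109838 had 27.0 and 13.6 FPKM in B1 and B2, 23.0 and 24.1 in C and D, 24.2 in E and 43.6 in F, and was not listed in A. The higher value of Ntrk2 in F than in E was thus one of the truncated form, whose intervals in E and F did not overlap, while the full-length form was lower in F than in C, D and E. The truncated share of the gene was 35.5% and 22.5% in B1 and B2, 29.3% and 30.8% in C and D, 30.5% in E and 47.8% in F, so that the litters of segment B differed by more than C, D and E did, and F lay above both.

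The absence of truncated Ntrk2 in A did not hold in the tables of models that the authors assembled de novo from the same reads. There, summed over spliced models that end near the same 3′ end, the truncated end had 17.9 FPKM in A, 38.8 and 31.4 in B1 and B2, 40.0 and 39.8 in C and D, 35.3 in E and 57.5 in F. The full-length end had 25.1 FPKM in A, 47.1 and 46.1 in B1 and B2, 54.0 and 52.8 in C and D, 53.7 in E and 46.5 in F, close to the Ensembl values. The truncated share was 41.7% in A, 45.2% and 40.5% in B1 and B2, 42.6% and 43.0% in C and D, 39.7% in E and 55.3% in F. A was therefore no longer apart, and with these models F was the only library outside the range of the litters of B by more than their difference. With both ends summed, Ntrk2 had 43.1 FPKM in A and 104 in F, a ratio of 2.42 in place of 3.41.

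The deposited Ensembl model of the truncated form is 1889 nt long, and the annotated transcript of that identifier in GENCODE M21 is 6846 nt long. A single-exon de novo model lay past the 3′ end of the Ensembl model, at chr13:59035014-59038365 on mm9, with 20.3 FPKM in A, 28.1 and 27.1 in B1 and B2, 28.7 and 27.7 in C and D, 24.9 in E and 36.7 in F. It followed the same order as the truncated end at its extremes, lowest in A and highest in F. Whether it belongs to the truncated transcript was not tested.

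**Figure D4:**
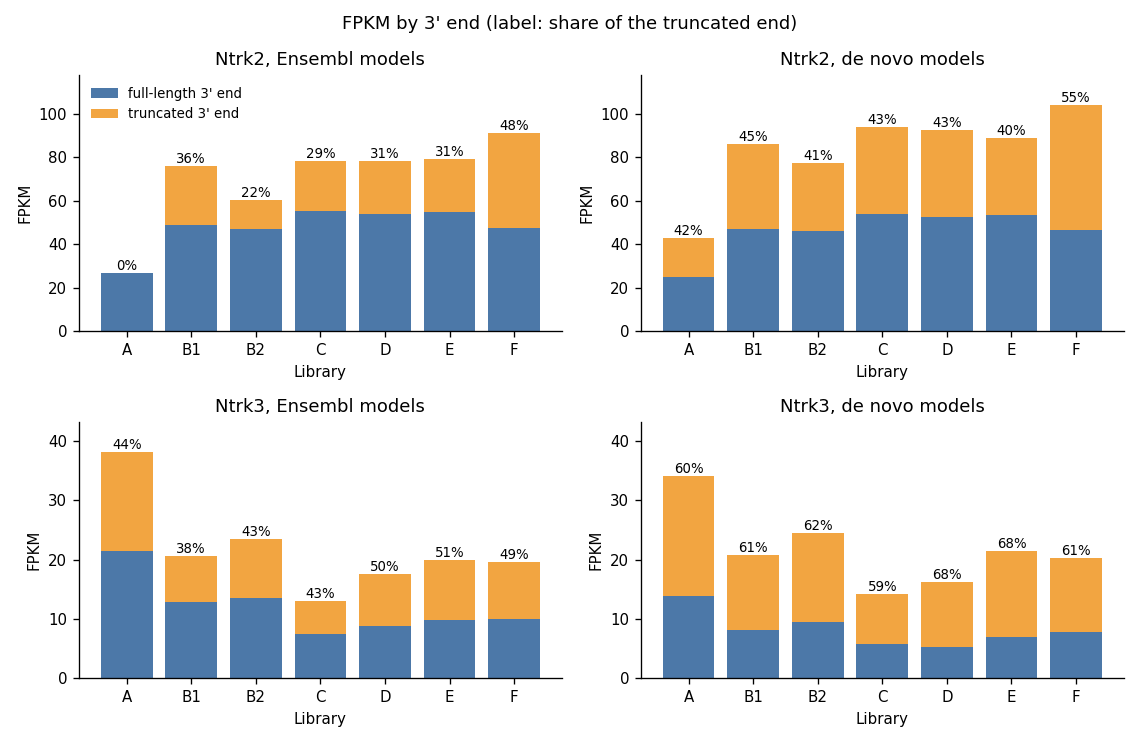
FPKM (y axis, linear) of Ntrk2 and Ntrk3 in the 7 libraries (x axis), split by full-length and truncated 3′ end, for Ensembl models on the left and de novo models on the right, with the truncated share above each bar. In A the truncated share of Ntrk2 is 0% with Ensembl models, where the transcript is not listed, and 41.7% with de novo models, and in F it is 47.8% and 55.3%.

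For Ntrk3, full-length ENSMUST00000039431 had 21.4 FPKM in A, 12.8 and 13.5 in B1 and B2, 7.45 and 8.80 in C and D, 9.79 in E and 10.04 in F. It had the pattern of the gene, highest in A and lowest in C. The truncated coding transcript ENSMUST00000039438 had 7.82 and 1.41 FPKM in B1 and B2, 3.62 and 6.66 in C and D, 10.1 in E and 9.62 in F, and was not listed in A. The noncoding ENSMUST00000151885, 868 nt long, shares its 3′ end and had 16.8 FPKM in A, 8.64 in B2, 1.90 in C and 2.19 in D, and was not listed in B1, E or F. The truncated coding transcript was highest in the 3 libraries that did not list the noncoding one, and A, where the noncoding one was highest, did not list the coding one. Both were therefore also summed as 1 end. That end had 16.8 FPKM in A and 5.52 in C, again the highest and the lowest of the libraries.

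Summed over that end, the truncated share of Ntrk3 was 44.0% in A, 37.9% and 42.7% in B1 and B2, 42.6% and 50.1% in C and D, 50.8% in E and 48.9% in F. D, E and F lay above the other 4 libraries, of which segment B had 40.3% ± 3.39 (SD, n = 2). With de novo models the share was 59.6% in A, 60.7% and 61.6% in B1 and B2, 58.8% and 67.7% in C and D, 67.9% in E and 61.4% in F. There D and E were again the highest, but F lay between B1 and B2. Deposited Ensembl models of Ntrk3 were also shorter than those of GENCODE M21. ENSMUST00000039431 had 3300 nt against 19703 nt, and ENSMUST00000039438 had 2337 nt against 3977 nt. The effect of model length on these shares was not tested.

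Isoform use was tested as the log2 ratio of a transcript to the summed others of its gene, with the same limma trend test over all 21869 transcripts of genes with at least 2 of them. None of the 21869 passed, a background of 0%, although 4808 had an unadjusted p under 0.05, and 3 of these were among the 12 tested transcripts of Bdnf, Ntrk2 and Ntrk3. ENSMUST00000039438, truncated Ntrk3, had a slope of 1.30 ± 0.32 (SE) in that ratio per segment step (limma adjusted p = 0.179). Truncated Ntrk2 ENSMUST00000109838 had 0.98 ± 0.35 (adjusted p = 0.206) and full-length ENSMUST00000079828 had -0.95 ± 0.36 (adjusted p = 0.215). When transcripts that share a 3′ end were summed, a choice made after seeing the data, none of 17330 ends passed and 4025 had an unadjusted p under 0.05. The truncated end of Ntrk2 then had a slope of 0.98 (adjusted p = 0.189) and that of Ntrk3 0.12 (adjusted p = 0.632), so that the large slope of ENSMUST00000039438 was not kept once the noncoding transcript was added to it. Without A, which did not list the truncated transcripts, none of the 12 transcripts had an unadjusted p under 0.05, and the slopes were 0.62 for ENSMUST00000039438, 0.22 for ENSMUST00000109838 and -0.18 for ENSMUST00000079828.

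Pairs of libraries were also compared by whether their 95% intervals overlapped, a description that holds no spread between mice. Between A and F the intervals did not overlap for 7 of the 7 genes, with 71.1% of the 17844 genes past the same rule. Bdnf, Ntf3, Ntrk3, Igf1 and Vgf were higher in A, and Ntrk2 and Igf1r higher in F. Ntf3 is not among the 17844 genes, and in F, which did not list it, its value and interval were set to 0. Between the replicates B1 and B2 they did not overlap for 4 of the 7, with a background of 48.5%, Ntrk2 and Vgf being higher in B1 and Ntrk3 and Igf1r in B2. Nonoverlap of these intervals was therefore common between litters of the same segment.

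Neighbouring segments gave the following counts of the 7 genes with nonoverlapping intervals. From A it was 6 to B1, with a background of 64.8%, and 5 to B2, with 62.7%. Toward C it was 3 from B1, with 49.8%, and 6 from B2, with 43.4%. The deeper steps gave 3 for C to D, with 22.6%, 3 for D to E, with 30.9%, and 4 for E to F, with 39.6%. Igf1r was the only gene that differed by this rule at all 3 deeper steps, and in each it was higher in the deeper segment.

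Other ligands and receptors of the neurotrophin system were set beside the 7 genes. Ntf5, another neurotrophin, had at most 0.148 FPKM and was under the filter. Ngfr, the low-affinity receptor p75, rose from 0.156 FPKM in A, 0.112 and 0.0675 in B1 and B2 to 1.02 in F (slope 0.44 ± 0.07, limma adjusted p = 0.00624) and passed under the median of ratios too (slope 0.37, adjusted p = 0.0123). Sort1, which encodes the proneurotrophin receptor sortilin, had 38.5 FPKM in A and 70.6 to 95.8 in the other libraries (slope 0.12, adjusted p = 0.198).

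Of a list of 28 other genes of neurotrophin signalling, which holds these 3, 26 were tested. Of these 11 passed with a positive slope, none with a negative one and 15 did not pass, with a median slope of 0.12, where all genes had 28.3% with a positive slope, 8.20% with a negative one and a median of 0.08. Under the median of ratios 7 passed with a positive slope, against 14.1% of all genes, with a median slope of 0.02 against -0.01, and without A 4 did, against 5.9%. Gab1, a docking protein of receptor kinases, had the highest slope at 0.68 ± 0.07 (adjusted p = 0.00392), from 1.32 FPKM in A to 21.6 in F. The lowest slope was that of Ngfrap1, which encodes a p75-associated protein, at 0.003 (adjusted p = 0.834), and it was -0.10 under the median of ratios. Maged1, another partner of p75, had the highest mean level at 144 FPKM with a slope of 0.12 (adjusted p = 0.0701).

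In the IGF system, 20 of 21 further genes were tested, of which 10 passed with a positive slope, 2 with a negative one and 8 did not pass, against the same 28.3% and 8.20% of all genes. Under the median of ratios there were 4 with a positive and 3 with a negative slope, Igfbp6 among them, against 14.1% and 14.3%, and without A 4 with a positive slope and none with a negative one, against 5.9% and 1.96%. Igf2, another ligand, fell from 17.8 FPKM in A to 2.57 to 4.84 elsewhere (slope -0.24 ± 0.11, limma adjusted p = 0.0414). Without A its slope was 0.06 (adjusted p = 0.645). The sums of the leptomeningeal and of the endothelial markers were also highest in A, and the part of such cells in the values of Igf2 was not tested. The receptors Igf2r and Insr were lowest in A, at 1.65 and 1.89 FPKM, and reached 4.90 and 5.07 in F (adjusted p = 0.0134 and 0.0217), and neither passed under the median of ratios (adjusted p = 0.0591 and 0.0983).

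The IGF binding proteins, secreted carriers of IGF-1, moved in both directions. Igfbp2 fell from 34.8 FPKM in A, 28.3 and 16.8 in B1 and B2 to 6.46 in F (slope -0.47 ± 0.07, adjusted p = 0.00705). Igfbp5 rose from 16.9 FPKM in A, 17.4 and 16.5 in B1 and B2 to 34.0 in E and 100.6 in F (slope 0.47 ± 0.05, adjusted p = 0.00382), and Igfbp3 from 0.925 in A to 3.66 in F (slope 0.39 ± 0.05, adjusted p = 0.00500). These 3 passed in the same direction under the median of ratios and with the GC correction, and without A Igfbp2 kept a slope of -0.45 that did not pass (adjusted p = 0.0708). Igfbp6 had 79.8 FPKM in A and 18.2 in F (slope -0.29, adjusted p = 0.0724), and Igfbp4, the highest of the list on average at 64.1 FPKM, a slope of 0.21 (adjusted p = 0.266), which without A was 0.34 and passed (adjusted p = 0.0193). Pappa2, a protease that cleaves IGF binding proteins, had the highest slope of the list, 0.89 ± 0.12 (adjusted p = 0.00588), with 0.0372 FPKM in A, 0.0606 and 0.0999 in B1 and B2, 0.755 and 1.54 in C and D, 1.36 in E and 1.95 in F.

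Vgf was set beside 12 genes of granins and prohormone processing, all tested, of which 6 passed with a positive slope, 1 with a negative one and 5 did not pass, with a median slope of 0.15 against 0.08 for all genes, of which 28.3% and 8.20% passed. Under the median of ratios 3 had a positive and 1 a negative slope, against 14.1% and 14.3%, and without A none and 1, against 5.9% and 1.96%. A positive slope was not always a steady rise: Chgb, named after its values were seen, had 124 FPKM in A, 233 in E and 132 in F (slope 0.05, limma adjusted p = 0.0296). Cadps, needed for dense-core vesicle release, had the highest slope at 0.33 ± 0.05 (adjusted p = 0.00401), with 10.7 FPKM in A, 67.7 in D and 44.5 in F. Pcsk1n, which encodes the convertase inhibitor proSAAS, fell from 680.0 FPKM in A, 577 and 271 in B1 and B2 to 194 in E and 214 in F (slope -0.32 ± 0.08, adjusted p = 0.0240), and like Vgf it was higher in B1 than in B2. Cpe, carboxypeptidase E, had the highest mean, 727 FPKM, and rose from 373 in A to 1067 in F (slope 0.23 ± 0.05, adjusted p = 0.0304), without passing under the median of ratios (adjusted p = 0.169).

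Of 11 activity-regulated genes, all tested, 2 passed with a positive slope, against 28.3% of all genes, and 9 did not pass, with a median slope of 0.06 against 0.08. Under the median of ratios none passed with a positive slope and 1 with a negative one, against 14.1% and 14.3%. Without A the median slope was -0.04 against 0.07 for all genes. The 2 that passed as deposited, both named after their values were seen, were Arc and Dusp6. Arc, a synaptic regulator, had 8.83 FPKM in A, 23.8 and 13.9 in B1 and B2 and 29.1 in E (adjusted p = 0.0269). Dusp6, a phosphatase of ERK, had 7.32 in A, 20.5 in D and 10.4 in F (slope 0.06, adjusted p = 0.0112). Dusp6 was also the 1 with a negative slope under the median of ratios (slope -0.04, adjusted p = 0.0242), so its direction turned with the scale. Nptx2, a secreted pentraxin, had the highest slope at 0.25 ± 0.08 (adjusted p = 0.0746), with 18.8 and 11.6 FPKM in B1 and B2 and 38.0 in E. Egr3, a transcription factor, had the lowest at -0.09 ± 0.09 (adjusted p = 0.465), with 67.2 and 30.2 FPKM in B1 and B2. Homer1, a postsynaptic scaffold, had the highest mean, 59.9 FPKM, and a slope of 0.01 (adjusted p = 0.123).

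For each of the 7 genes the genes whose profile over the 7 libraries was most alike were taken by Pearson's r of log2(FPKM + 0.1), among 10143 or 10144 others with narrow intervals and a mean of at least 1 FPKM. Ntrk2 was most like Exoc6b (r = 0.999), Lysmd1 (r = 0.999) and App (r = 0.998), and 912 genes were above 0.95. Its shape, low in A and nearly level from C to E, was thus a common one. Ntrk3 was most like Filip1 (r = 0.967), Tcte2 (r = 0.960) and ENSMUSG00000086082 (r = 0.956), and 6 genes were above 0.95.

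Igf1r was most like Adarb2 (r = 0.953), Snx9 (r = 0.951) and Camk1 (r = 0.947), each lowest in C and highest in F. Igf1 was most like Htatip2 (r = 0.987), Lmo1 (r = 0.910) and Prcd (r = 0.898). Vgf was most like ENSMUSG00000067283 (r = 0.980), Gmppb (r = 0.936) and Fam57b (r = 0.924), all of them higher in B1 than in B2. Bdnf was most like Gm6654 (r = 0.981), Rpl12 (r = 0.951) and mt-Tq (r = 0.946). Gm6654 and Rpl12 had 16.0 and 19.9 FPKM in A and 0 in F, where Bdnf had 8.31 in A and 3.30 in F. Their changes were thus larger than that of Bdnf and reached the floor in F. Ntf3, at its few fragments, was most like Dpf1 (r = 0.956), Gm23935 (r = 0.938) and Gm24270 (r = 0.913). These points share libraries and their depth, with n = 7, and the values describe likeness of profile only.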

How the data were processed

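Polyadenylated RNA of the 7 S1 libraries had been sequenced in pairs of reads with an unstranded kit, so antisense transcripts cannot be told apart, although no other listed gene overlapped the 7 loci. Per the submitters' processing notes, reads were aligned to mm9 with TopHat 1.0.13 and quantified with Cufflinks 0.8.3. The authors deposited FPKM with 95% intervals for Ensembl release 57 genes and transcripts and for de novo models. The authors also gave each transcript's fold coverage, a signal from which, with FPKM, fragments were estimated at 50 nt a read, and its abundance as a fraction of the most abundant transcript. Part of F had longer reads, so its depth is approximate.

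The members and lists were chosen with earlier results of these data known. Trends were fitted in R 4.3.3 with limma 3.58.1 on log2(FPKM + 0.1), which understates changes of low genes, for genes averaging 0.1 FPKM or more, with moderated F-tests. All tests are two-sided. Only segment B has replicates, so the residual spread holds the fit to a curve as well as B1 against B2. The script was tested on simulated data, where the trend test recovered 0% of slopes of 0.1, 8% of 0.25 and 74% of 0.5. The usage test recovered 4% of slopes of 0.5 and 78% of slopes of 1. In the simulation 50 genes or transcripts had each slope, while in the data 6521 genes passed the trend test. The adjusted threshold depends on such numbers, so these rates do not carry over to the 7 genes. A trend that did not pass does not show a level profile. Transcripts were joined to genes by position for 44406, by identifier for 1970, and not for 555. GC content came from GRCm38 transcripts of the same identifiers, and 20 bins of it were used for the correction. Named genes were the 7, the 3 most alike in profile, and from each list the highest and lowest slope, the highest mean and the ligands, receptors and binding proteins. Some genes of the lists are counted but not reported here by name. Alternatives covered the pseudocount, filter, scaling, GC, model and each library left out. De novo models were used after the data were seen.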

Additional observations from a re-analysis of the deposited data

Results flagged for a closer look

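The de novo tables hold many short single-exon models inside the receptor genes in library A, a signal in data that the comparisons do not use. Within Ntrk2, 22 such models exceeded 1 FPKM in A, against 3 and 9 in B1 and B2, 6 in C, D and E and 4 in F. Within Ntrk3 there were 26 in A, against 2 and 10 in B1 and B2, 4 and 3 in C and D and 2 in E and F. In A their median level was 6.69 FPKM within Ntrk2 and 4.41 within Ntrk3, and the weakest rested on an estimated 16.0 and 11.3 fragments, above the 3 fragments that a count of 0 allows. A and B2, the libraries with the most of them, also had the largest share of mitochondrial FPKM, 21.8% and 18.2%. A also had the lowest estimated depth and the shortest insert, while B2 had the highest depth. The part of any of these in the number of models was not tested.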

How the results depend on the processing

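The count of genes with a trend, 6521, was 2662 with a linear term only and 0 with segments as 6 levels (2881 at an unadjusted p under 0.05), and 1402 to 9200 when 1 library was left out, with 1402 without A, 3974 without C, 4276 without D and 4033 without E. Of the 7 genes, 3 passed; 1 passed without an intensity trend in limma and 1 with scaling without mitochondrial genes, none with a linear term only or with 6 levels, and 0 to 4 with 1 library left out (4 without B1, 0 without A, B2, C or E, 1 without D). Without both A and B2, chosen after seeing the data, 0 genes and 0 of the 7 passed (7122 genes at an unadjusted p under 0.05). Bdnf passed with the GC correction (adjusted p = 0.0270) and without B1 (adjusted p = 0.0487). Intervals widened 2 times left 2 of 4 differences between B1 and B2.

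The slope of Igf1r changed sign under the median of ratios (-0.011), the GC correction (-0.020) and without F, with a range of -0.0013 to 0.14 over libraries left out, and those of Ntrk3 (0.047) and Igf1 (0.00099) without A and B2. Among Bdnf transcripts, usage slopes with 1 library left out ranged from -0.055 to 0.0066 for ENSMUST00000053317 (0.046 with a pseudocount of 1), from -0.062 to 0.091 for ENSMUST00000111045, from -0.55 to 0.46 for ENSMUST00000111046 and from -0.035 to 0.24 for ENSMUST00000111050. None of these usage slopes had passed. The causes were not tested. No paired analysis was possible because only segment B has replicates, so that segments share fewer than 2 replicate numbers. Depth limits Ntf3 most.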
